A study of Mus musculus with 4 samples.

Results

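Tetraspanins are small membrane proteins that cross the lipid bilayer several times and gather integrins, immunoglobulin-like proteins, proteases and receptors into patches of the cell surface. In blood cells they are known for tuning adhesion, migration and receptor signalling, and some of them travel to late endosomes and leave the cell on vesicles. The 10 genes described here, Cd9, Cd37, Cd53, Cd63, Cd81, Cd82, Cd151, Tspan13, Tspan32 and Tspan33, are family members of blood progenitors, and their probe sets were taken where the platform annotation gave that gene alone. This gave 22 of the 45037 probe sets tested, for 9 of the 10 genes. Cd63, whose protein sits in late endosomes and platelet granules, was not analysed here.

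RNA came from LSK cells of mouse bone marrow, that is cells without lineage markers that carry c-Kit and Sca1, which include stem cells as well as multipotent progenitors. The mice are labelled WT B6/129, and the LSK cells of both groups made a c-Myc-eGFP protein by which they were sorted. The Hi group had a high and the Lo group a low level of it, with 2 arrays each. The question is which transcripts vary with c-Myc protein; the sort is by protein level, and the shares of stem cells and progenitors in Hi and Lo are not given. Nothing in the labels says whether the 2 arrays of a group came from separate mice or pools, so the p-values measure only the spread between these arrays.

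Over all probe sets the arrays correlated at r = 0.990 within Hi, 0.983 within Lo and 0.972 to 0.976 between the groups. The Myc transcript had intensities of 5437 and 5450 on the Hi arrays and 3323 and 1591 on the Lo arrays. Of the genes behind the sort, Kit was bright on all 4 arrays (2680 to 3967), as was Cd34 (7046 to 7738), while Ly6a, which encodes Sca1, was not analysed here. Of the genes of the lineages that the sort removes, Cd3e at 37.9 to 52.5 and Itgam at 27.7 to 53.3 lay near the level at which a probe set cannot be told from background, and Pax5 lay under it on all 4 arrays. The B cell genes Cd79b and Ms4a1 were measured well above it, at 2081 to 2859 and 183 to 420. So were Cd4 at 245 to 360, Csf1r at 931 to 1829 and Mpo at 7573 to 12839. This dim limit, the brightest of 27 bacterial control probe sets without added transcript, had an intensity of 26.6 to 29.3, or 4.74 to 4.87 on the log2 scale. Signs of RNA quality were mixed. On the log2 scale the 3′ end of the Gapdh control transcript exceeded its 5′ end by 0.63 and 0.66 on the Hi arrays, against 0.74 and 0.78 on the Lo arrays. For the Actb control transcript the excess came to 0.60 and 0.55 on the Hi arrays, against 0.84 and 0.57 on the Lo arrays, so the groups overlapped.

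No tetraspanin passed the test over all probe sets. By limma with Benjamini-Hochberg adjustment, 0 of the 22 probe sets passed an adjusted p of 0.05 in either direction, and of all 45037 probe sets 0% passed as higher and 0% as lower (smallest adjusted p = 0.0839). At an unadjusted p under 0.05, 4 of the 22 were higher in Hi (18.2%, against 9.05% of all probe sets) and 2 lower (9.09%, against 8.91%). The 4 are the 4 probe sets of Tspan33, and the 2 both belong to Cd151. Probe sets of one gene read the same transcripts in the same RNA and are not independent.

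**Figure D1:**
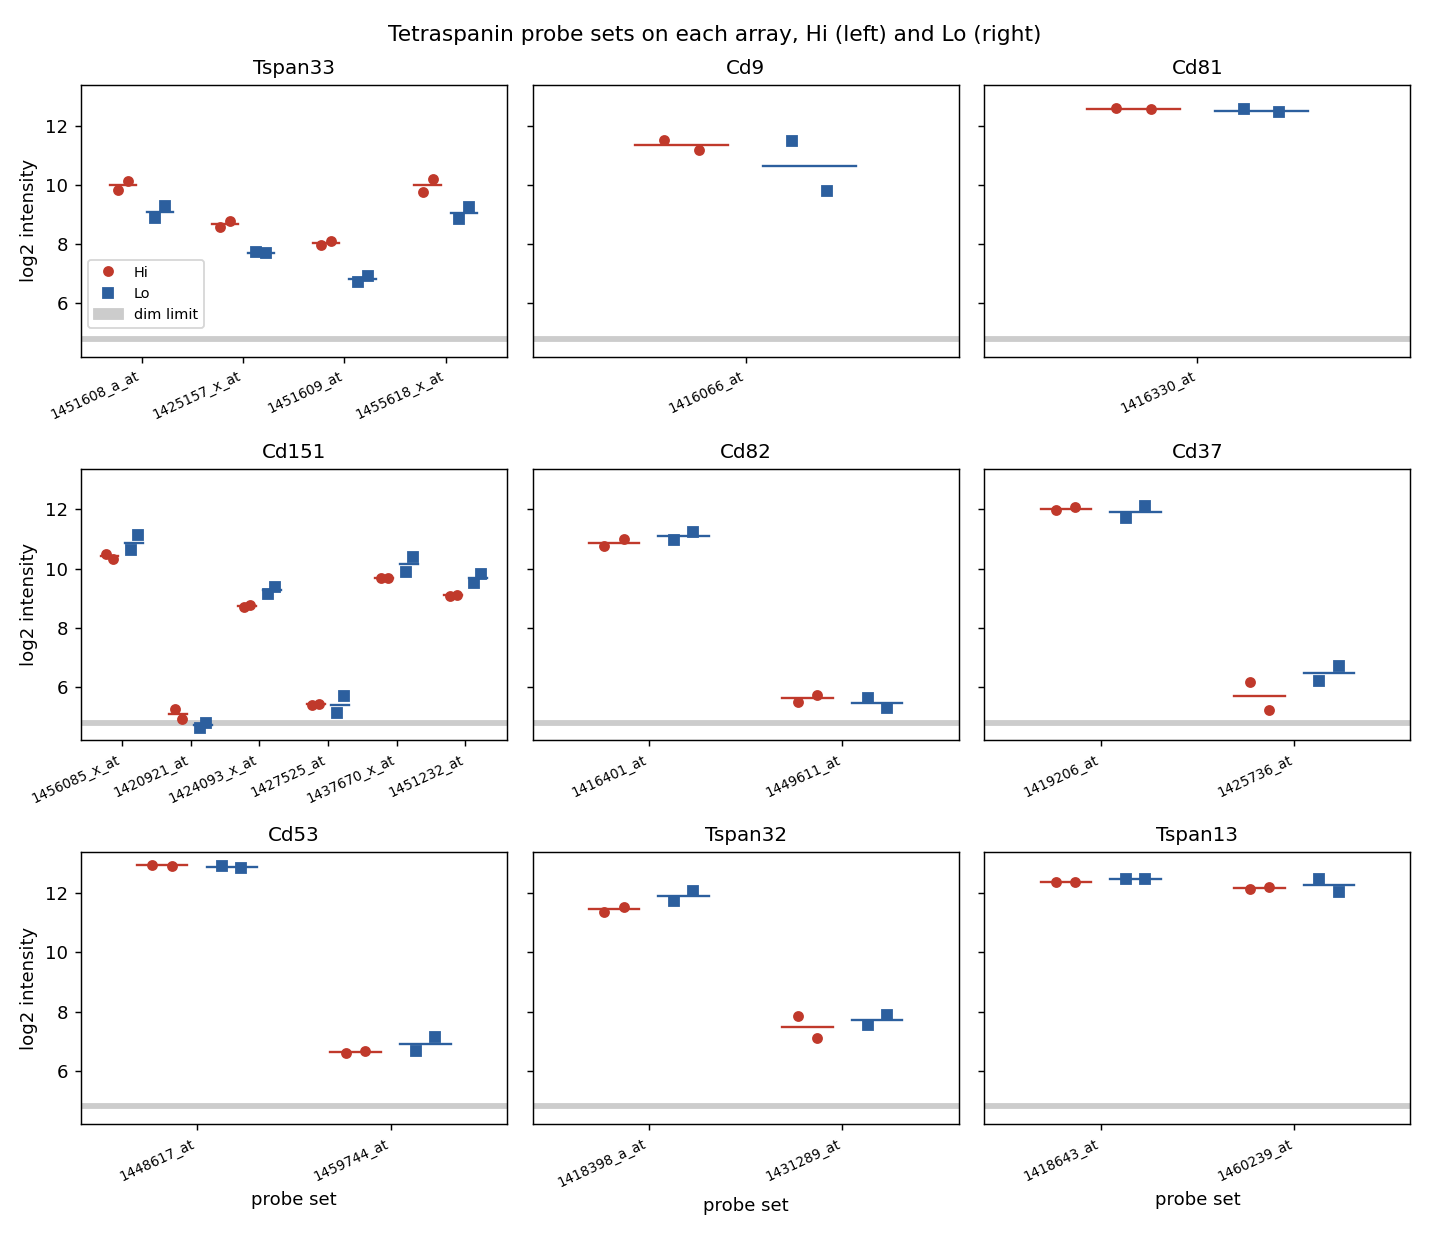
Log2 intensity (vertical axis) of each tetraspanin probe set (horizontal axis) on the 2 Hi arrays (circles, left) and the 2 Lo arrays (squares, right); short lines are group means and the grey band spans the dim limits of the 4 arrays. All 4 Tspan33 probe sets have both Hi arrays above both Lo arrays, Cd9 has one low Lo array, and the brightest Cd81, Cd53 and Tspan13 probe sets have group means 0.05 to 0.11 apart.

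In 5 of the 22 probe sets the lower Hi array exceeded the higher Lo array (22.7%, against 29.3% of all), and in 7 the higher Hi array was under the lower Lo array (31.8%, against 22% of all). Groups that do not overlap thus made up 54.5% of the tetraspanin probe sets and 51.3% of all probe sets, which is close to the background and no result about the tetraspanins. The median difference of Hi minus Lo over the 22 was -0.05 on the log2 scale, beside 0.04 over all probe sets, and 11 were higher and 11 lower. No difference between the genes was tested, and they are taken in turn below, first Tspan33, then the partners of integrins, then those of leukocytes.

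Tspan33 (chromosome 6, 29694214 to 29718558 in GRCm38.p6) encodes a tetraspanin that guides the surface protease Adam10, and in mice it is needed for normal red cell production. Its brightest probe set, 1451608_a_at, had intensities of 917 and 1136 on the Hi arrays and 478 and 625 on the Lo arrays. The lower Hi array was thus above the higher Lo array. On the log2 scale the levels were 9.995 ± 0.219 on the Hi arrays and 9.095 ± 0.273 on the Lo arrays (SD, n = 2 per group), and the difference was 0.90 ± 0.22 (moderated SE), which is 1.87-fold (limma adjusted p = 0.173). The probe set 1451609_at had log2 levels of 7.97 and 8.12 in Hi and 6.74 and 6.92 in Lo, a 2.32-fold difference with an adjusted p of 0.0956. The probe set 1425157_x_at read 385 and 438 in Hi and 213 and 207 in Lo, and 1455618_x_at read 867 and 1183 in Hi and 459 and 607 in Lo, which is 1.96-fold and 1.92-fold. In all 4 the groups did not overlap, and the log2 differences ran from 0.90 to 1.22 with adjusted p from 0.0956 to 0.191, so none passed. Names with _x_ mark probe sets that may also bind other transcripts, but 1451608_a_at and 1451609_at, which do not carry it, gave the same direction.

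With each array left out in turn, the brightest probe set of Tspan33 differed by 0.71 to 1.09 on the log2 scale. As its groups did not overlap, the sign could not turn in these fits. When all probe sets of a gene were averaged and the 18193 genes fitted, Tspan33 differed by 1.01 ± 0.17 (SE) with an adjusted p of 0.0646, the smallest of the 9 measured tetraspanins of the set, and did not pass. In that fit 0 of the 9 passed, against 2.9% of all genes, and in a fit of 1 probe set per gene 0 of 9, against 2.22%. Markers of the erythroid lineage moved the same way: the groups did not overlap for any of the 5 measured of the 6 listed, with Hi above Lo as in 29.3% of all probe sets, and their intensities summed to 5408 and 6376 on the Hi arrays, against 2806 and 2423 on the Lo arrays. None of the 5 was dim on all arrays. Granulocyte and monocyte markers also had a higher sum in Hi (41024 and 37988 in Hi, 14892 and 12729 in Lo, over 6 of 7 genes). Hi lay wholly above Lo in 5 of the 6, beside 29.3% of all probe sets, and Itgam overlapped. The part of these and of the erythroid markers in the Tspan33 difference was not tested. In such sorted mixtures more cells of a kind and more RNA per cell cannot be told apart.

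**Figure D2:**
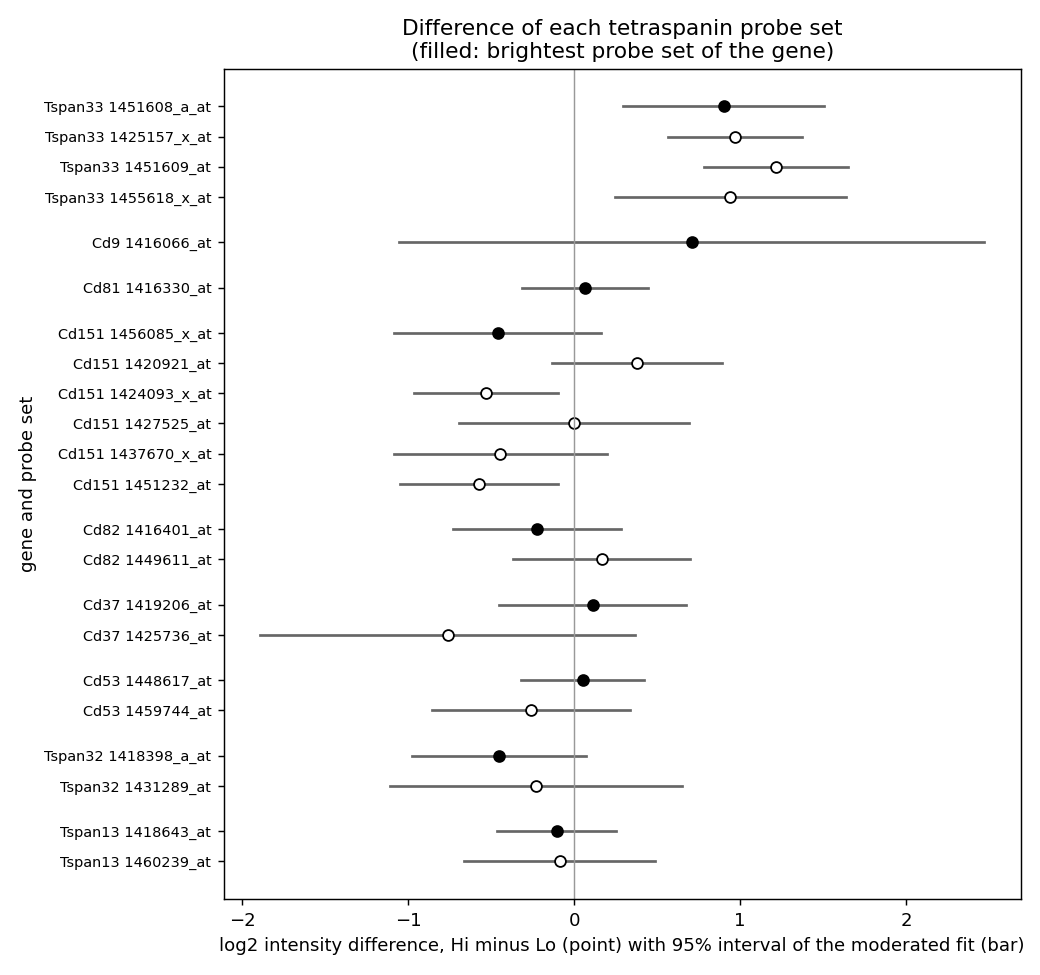
Difference in log2 intensity, Hi minus Lo (horizontal axis), of each of the 22 tetraspanin probe sets (vertical axis) with its 95% interval from the moderated fit, before adjustment for the number of tests. The 4 Tspan33 probe sets sit between 0.90 and 1.22, the 4 brighter Cd151 probe sets between -0.57 and -0.44, and the Cd9 interval runs from -1.06 to 2.47.

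The stretch before the Tspan33 start is shown with those of Cd151, whose brighter probe sets had the opposite sign, and of Cd37, the only one of the 10 genes with the hexamer bound by Myc with its partner Max in this window. Each is the 250 bases before an annotated start in RefSeq on GRCm38.p6, 5′ to 3′ on the gene's strand, with CACGTG in capitals. Tspan33 lies at chr6:29693964-29694213 and Cd151 (its first start) at chr7:141467112-141467361, both on the plus strand. Cd37 lies at chr7:45238840-45239089 on the minus strand. This Cd37 window, with its CACGTG, is inside the span of the gene, which reaches 45239340.
Tspan33: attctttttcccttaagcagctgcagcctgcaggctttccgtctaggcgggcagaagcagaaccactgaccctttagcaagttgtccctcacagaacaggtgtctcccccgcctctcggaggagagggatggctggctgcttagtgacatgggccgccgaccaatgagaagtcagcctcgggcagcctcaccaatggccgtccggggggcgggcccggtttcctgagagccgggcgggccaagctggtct
Cd151: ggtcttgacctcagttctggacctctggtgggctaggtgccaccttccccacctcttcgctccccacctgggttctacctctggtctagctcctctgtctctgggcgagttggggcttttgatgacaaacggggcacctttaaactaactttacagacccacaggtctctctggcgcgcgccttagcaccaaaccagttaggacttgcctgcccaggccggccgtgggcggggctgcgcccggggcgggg
Cd37: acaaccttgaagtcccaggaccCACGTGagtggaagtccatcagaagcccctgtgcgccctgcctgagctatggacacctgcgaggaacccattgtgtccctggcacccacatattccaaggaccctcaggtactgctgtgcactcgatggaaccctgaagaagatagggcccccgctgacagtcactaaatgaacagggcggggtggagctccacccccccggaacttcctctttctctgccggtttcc
CACGTG, which reads the same on both strands, stood in 1 of the 14 windows of the 10 genes, beginning 228 bases before the Cd37 start, and in 6.02% of all 32851 windows of that length. AGATAA, a form of the motif bound by GATA factors and searched on both strands, stood in 1 of the 14, beginning 212 bases before the Tspan32 start, and in 9.99% of all windows. Neither overlaps the other, and the Tspan33 window held neither hexamer. Such a match is a description of letters and not a binding site.

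Cd9 (chromosome 6, 125460266 to 125494760) marks platelets and their precursors, binds integrins and immunoglobulin-like partners, and is known in mice as a surface marker of haematopoietic stem cells. Its single probe set read 2928 and 2320 on the Hi arrays, and 2895 and 880 on the Lo arrays. Lo replicate 1 thus stood at the level of the Hi arrays, and Lo replicate 2 well under all others. The log2 difference of 0.71 ± 0.63 (SE) was smaller than the spread of the Lo arrays (SD 1.21, n = 2), with a limma adjusted p of 0.615. Without Lo replicate 2 it was -0.15 and without Lo replicate 1 it was 1.57, so its direction turned with 1 array.

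The gap of 1.72 on the log2 scale between the 2 Lo arrays for Cd9 was met or exceeded by 1.87% of all probe sets. The other 21 tetraspanin probe sets had Lo gaps of 0.01 to 0.60. Megakaryocyte and platelet markers were mixed. Pf4, the brightest, read 4605 and 3861 in Hi and 2408 and 3033 in Lo, Itga2b 504 and 484 in Hi and 419 and 349 in Lo, and Gp9 478 and 540.4 in Hi and 721 and 867 in Lo. The 6 measured of 7 genes, 0 of them dim on all arrays, summed to 6633 and 5580 on the Hi arrays, against 4163 and 4956 on the Lo arrays, of which Pf4 makes up most. Their part in the Cd9 values was not tested. Among genes of proteins that work with tetraspanins, 2 with a low Lo replicate 2 were singled out after their values were seen. The integrin subunit gene Itgb1 read 1644 and 1716 in Hi, against 1486 and 571 in Lo. The vesicle-docking gene Rab27a read 4710 and 3337 in Hi, against 3548 and 1397 in Lo. Others had a higher Lo replicate 2, such as the integrin gene Itga5, at 876 and 995 in Hi and 881 and 1271 in Lo.

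Cd81 (chromosome 7, 143052750 to 143067930) encodes a partner of the Cd9 protein, and its groups overlapped. It read 6160 and 6026 in Hi and 6091 and 5588 in Lo. The log2 difference was 0.06 ± 0.14 (SE) with an adjusted p of 0.852, and its 95% interval allowed ratios of Hi to Lo from 0.803 to 1.36. A change beyond that range is outside the interval of this single probe set.

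**Figure D3:**
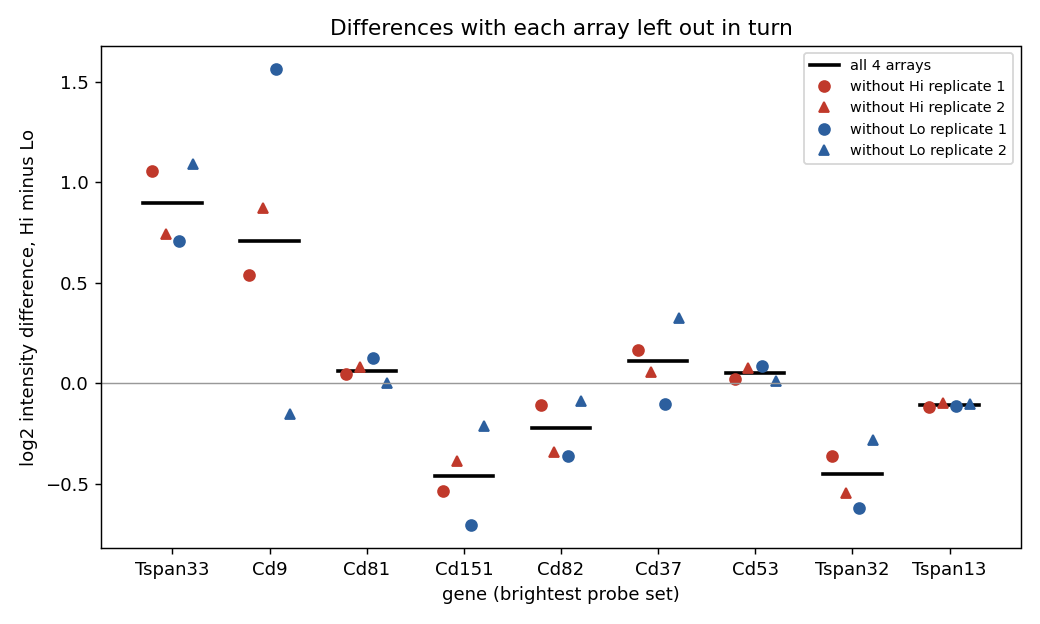
Log2 intensity difference, Hi minus Lo (vertical axis), of the brightest probe set of each tetraspanin gene (horizontal axis) with all 4 arrays (black line) and with each array left out (red, a Hi array; blue, a Lo array). Leaving out Lo replicate 2 gives -0.15 for Cd9 and leaving out Lo replicate 1 gives 1.57, while Tspan33 keeps to 0.71 to 1.09.

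Cd151 (chromosome 7, 141467362 to 141471481) encodes the tetraspanin that holds laminin-binding integrins, and it was measured by 6 probe sets. In 4 of them, all far above the dim limit, both Hi arrays lay below both Lo arrays, as in 22% of all probe sets. Of the 4, only 1451232_at does not carry _x_, so the others may also bind other transcripts. The brightest, 1456085_x_at, read 1439 and 1298 in Hi and 1583 and 2233 in Lo. The probe set 1451232_at read 544 and 557 in Hi and 734 and 915 in Lo, a difference of -0.57 ± 0.17 (SE) with a limma adjusted p of 0.223. In it the higher Hi array stood under the lower Lo array by more than the Hi arrays differed. The probe sets 1424093_x_at (414 and 438 in Hi, 569 and 669 in Lo) and 1437670_x_at (830.0 and 829.9 in Hi, 938 and 1361 in Lo) had the same order.

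The 4 log2 differences of Cd151 ran from -0.57 to -0.44 with adjusted p from 0.215 to 0.408, and none passed. The other 2 probe sets were faint. The probe set 1427525_at read 42.2 and 43.1 in Hi and 34.6 and 52.5 in Lo, with the same mean of 5.42 on the log2 scale in both groups. The probe set 1420921_at had the opposite order, at 38.1 and 30.3 in Hi and 24.6 and 27.7 in Lo, and was under the dim limit on Lo replicate 1. With all 6 averaged, Cd151 differed by -0.27 ± 0.18 (SE) with an adjusted p of 0.446, so the size of its difference depended on the faint probe sets; the brightest alone gave -0.46, and -0.21 without Lo replicate 2. Itga6, an integrin subunit gene for a Cd151 partner, had the same order, with 3187 and 2883 in Hi and 4779 and 3700 in Lo, a difference of -0.47 ± 0.19 with an adjusted p of 0.317.

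Cd82 (chromosome 2, 93419102 to 93462950), which in mice has a known part in keeping long-term stem cells at rest in the marrow, read 1727 and 2035 in Hi and 1994 and 2409 in Lo by its brightest probe set. The groups overlapped. The difference was -0.23 ± 0.18 (SE) with an adjusted p of 0.579, and its interval allowed ratios from 0.603 to 1.21. The faint second probe set read 45.7 and 53.5 in Hi and 49.4 and 39.3 in Lo, with the opposite sign of 0.16 ± 0.19. The 5 measured genes of the list for the sort and the stem cell surface had differences of -2.00 to 0.11. Procr read 787 and 959 in Hi and 3351 and 3602 in Lo (adjusted p = 0.0839), and Slamf1 442 and 171 in Hi and 1021 and 758 in Lo (adjusted p = 0.235). Kit, Flt3 and Cd34 stood at -0.27, -0.15 and 0.11, and none of the 5 passed in the fit over all probe sets. Procr passed in both fits over genes, and Slamf1, Kit, Flt3 and Cd34 did not. Its limma adjusted p was 0.0313 with gene means, where 2.9% of all genes were called. With 1 probe set per gene it was 0.03855, where 2.22% were called.

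Among the leukocyte tetraspanins, Cd53 and Cd37 were bright, with overlapping groups. Cd53 (chromosome 3, 106758861 to 106790149), a general leukocyte surface protein, read 7971 and 7674 in Hi and 7749 and 7361 in Lo. The difference was 0.05 ± 0.13 (SE) with an adjusted p of 0.881, and the interval allowed ratios from 0.802 to 1.34. The fainter probe set 1459744_at read 96.5 and 103 in Hi and 101 and 141 in Lo, also overlapping. The fainter one differed by -0.26 ± 0.21, opposite in sign, and neither interval left out a difference of 0.

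Cd37 (chromosome 7, 45233632 to 45239340), best known from mature B cells, read 4012 and 4323 in Hi and 3328 and 4473 in Lo. Both Hi arrays lay between the 2 Lo arrays. The difference was 0.11 ± 0.20 (SE) with an adjusted p of 0.821, and without Lo replicate 1 it was -0.10. The faint probe set 1425736_at read 72.7 and 37.4 in Hi and 74.2 and 106 in Lo, a difference of -0.76 ± 0.41 with an adjusted p of 0.417; it was -0.29 without Hi replicate 2 and -1.24 without Hi replicate 1. The mean of both was -0.33 ± 0.24 and did not pass either. B cell markers were mixed. Of the 5 measured of 6, Hi lay wholly above Lo in 1 (as in 29.3% of all probe sets) and wholly below it in 2 (as in 22%). Pax5 was under the dim limit on all 4 arrays. The intensities of these markers summed to 2624 and 2784 on the Hi arrays, against 3425 and 3419 on the Lo arrays. Their part in the Cd37 values was not tested.

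Tspan32 (chromosome 7, 143004907 to 143019486), found mainly in blood cells, which in mice restrains T cell growth and steadies platelet clots, read 2629 and 2989 in Hi and 3413 and 4313 in Lo by its brightest probe set. Both Hi arrays lay below both Lo arrays. The difference was -0.45 ± 0.19 (SE) with an adjusted p of 0.327, and it ran from -0.62 to -0.28 with single arrays left out. The second probe set, 1431289_at, read 231 and 140 in Hi and 186 and 239 in Lo and overlapped. T cell markers were mixed: Cd3d (33.6 and 39.0 in Hi, 75.3 and 50.5 in Lo) and Cd8a (49.1 and 43.4 in Hi, 118 and 93.5 in Lo) lay wholly lower in Hi, the brighter Cd4 (360 and 304 in Hi, 245 and 273 in Lo) lay wholly higher, and Cd3e and Cd3g overlapped. The 5 measured of 6, with 0 dim on all arrays, summed to 645 and 465 on the Hi arrays, against 578 and 545 on the Lo arrays. Their part in the Tspan32 values was not tested. Tspan32 and Cd81 lie next to each other on chromosome 7, 33263 bases apart. By the brightest probe sets the groups were apart for Tspan32, as in 51.3% of all probe sets, and overlapped for Cd81. The difference between the genes was not tested.

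Tspan13 (chromosome 12, 36014555 to 36042478) had close replicates by its brightest probe set, at 5352 and 5279 in Hi and 5704 and 5741 in Lo. The replicates differed by 0.02 in Hi and 0.01 in Lo on the log2 scale, and both Hi arrays lay below both Lo arrays. The difference was -0.11 ± 0.13 (SE) with an adjusted p of 0.717 and an interval of ratios from 0.724 to 1.19. Its second probe set read 4550 and 4705 in Hi and 5755 and 4211 in Lo and overlapped, with a difference of -0.09 ± 0.21. Close replicates thus separated groups that differed by only 1.08-fold, lower in Hi.

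The rest of the family was taken from a list of 21 other tetraspanin genes, 20 of them measured, each by its brightest probe set. By the fit over all probe sets 0 of the 20 passed, with unadjusted p under 0.05 for 1 higher and 3 lower genes, against 9.25% of all genes higher and 11% lower, and the median log2 difference was -0.08, beside 0.03 for all genes by their brightest probe set. Tspan8, best known from epithelia, read 1234 and 1435 in Hi and 448 and 413 in Lo, 3.1-fold brighter in Hi (adjusted p = 0.0842). It passed in the fit of 1 probe set per gene (adjusted p = 0.0404, where 1.04% of genes were called higher) and not with the mean of its 5 probe sets (adjusted p = 0.0675). The faintest of the 5 was under the dim limit on all arrays. Tspan2 (1034 and 974 in Hi, 806 and 542 in Lo) also had higher values in Hi, and Tspan9 (121 and 111 in Hi, 241 and 232 in Lo) and Tspan14 (1841 and 1909 in Hi, 2594 and 2417 in Lo) lower ones, with adjusted p of 0.315, 0.0968 and 0.244. The Tspan2 difference of 0.60 moved with single arrays, to 0.32 when Lo replicate 2 was left out and to 0.89 when Lo replicate 1 was. Its other probe sets, 1424567_at and 1432417_a_at, were also higher in Hi, by 1.23 ± 0.26 and 0.48 ± 0.14 (SE). The mean of its probe sets gave 0.77 and did not pass (limma adjusted p = 0.121). Tspan12, 1 of the 3 lower genes, was under the dim limit on all 4 arrays, so its difference is no measured fold. Tspan11, Tspan18, Prph2 and Upk1b were also under it on all 4.

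**Figure D4:**
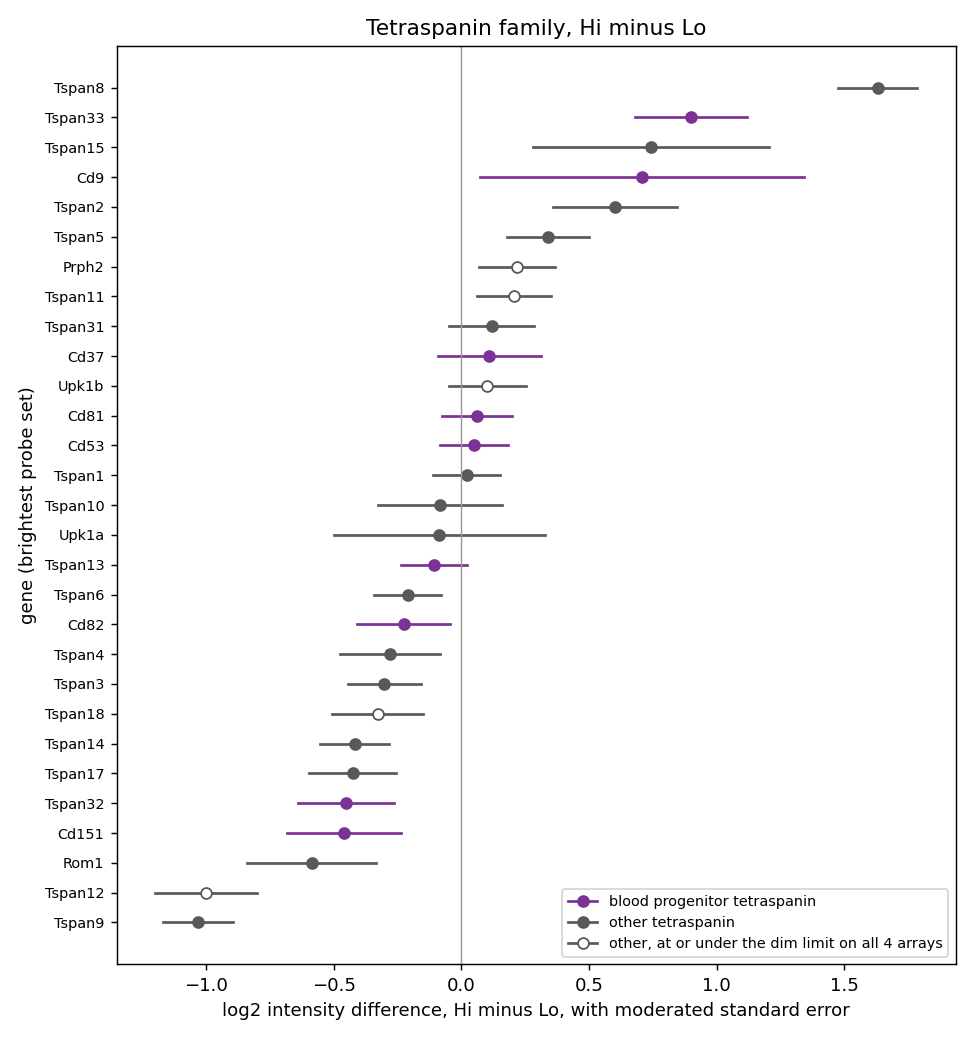
Log2 intensity difference, Hi minus Lo, with its moderated standard error (horizontal axis) for the brightest probe set of 9 blood progenitor tetraspanins (purple) and 20 other tetraspanins (grey; open where all 4 arrays were dim), ordered by difference (vertical axis). Tspan8 at 1.63 and Tspan33 at 0.90 stand at the upper end and Tspan9 at -1.03 at the lower; Tspan15 is under the dim limit on both Lo arrays and 1 Hi array, so its value of 0.74 is no measured fold.

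Tspan33 belongs to a subgroup of tetraspanins that bind Adam10 and direct which surface proteins it cuts, together with Tspan5, Tspan10, Tspan14, Tspan15 and Tspan17. This subgroup had differences of both signs. Tspan5 read 2459 and 2486 in Hi and 2151 and 1777 in Lo, a difference of 0.34 ± 0.16 (SE) with an adjusted p of 0.379. Tspan14 stood at -0.42 ± 0.13 and Tspan17 at -0.43 ± 0.17. The second Tspan17 probe set, 1455642_a_at, read 43.3 and 45.8 in Hi and 161 and 130 in Lo, a difference of -1.70 ± 0.17 with an adjusted p of 0.0846, and with the mean of both Tspan17 fell by 1.06 in Hi (limma adjusted p = 0.0485, where 1.52% of genes were called lower). Tspan17 was singled out after its values were seen. Tspan10 and Tspan15 lay around the dim limit, and Tspan15 read 25.2 and 58.6 in Hi and 25.2 and 20.9 in Lo, with only Hi replicate 2 above the limit (adjusted p = 0.477). Adam10 itself read 4466 and 4611 in Hi and 5213 and 4541 in Lo, a difference of -0.10 ± 0.15, while its 3 fainter probe sets had differences of 0.20 to 0.97.

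Proteins that bind tetraspanins were taken from a list of 21 genes, of which 19 were measured. By limma 0 passed, with unadjusted p under 0.05 for 0 higher and 2 lower genes, against 9.25% of all genes higher and 11% lower by their brightest probe set, and the median difference was -0.26. Ifitm1, an antiviral membrane protein gene whose product associates with Cd81, read 7042 and 6603 in Hi and 10306 and 10260 in Lo, a difference of -0.59 ± 0.13 (SE) with an adjusted p of 0.157. Ptgfrn, an immunoglobulin-like partner of Cd9 and Cd81, was under the dim limit on both Hi arrays. It read 51.6 and 31.6 in Lo (limma adjusted p = 0.259). The Lo mean stood 1.38-fold above the limit, a bound on the means that carries no error. The other Ptgfrn probe set was under the limit throughout. Igsf8, a close relative of Ptgfrn that binds the same tetraspanins, read 363 and 367 in Hi and 307 and 262 in Lo, with an adjusted p of 0.329. The chemokine receptor gene Cxcr4 (6222 and 5937 in Hi, 5502 and 3300 in Lo) and Itgb1 differed by 0.51 ± 0.29 and 0.87 ± 0.51, and without Lo replicate 2 by 0.14 and 0.18.

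Of 17 genes of vesicle release, the route by which tetraspanin-rich exosomes leave cells, 17 were measured and 0 passed by limma, with unadjusted p under 0.05 for 0 higher and 2 lower genes, against 9.25% of all genes higher and 11% lower, and a median of -0.11. The phospholipase gene Pld2 read 87.9 and 92.5 in Hi and 168 and 198 in Lo, a difference of -1.01 ± 0.16 (SE) with an adjusted p of 0.107, and its second probe set gave -0.94. The endosomal sorting genes Stam and Chmp4b stood at -0.41 ± 0.13 and -0.37 ± 0.17, and Stam at 0.34 with the mean of its probe sets. Rab27a, Smpd3 and Arf6, the members with the smallest p on the higher side, had differences of 0.83 ± 0.52, 0.16 ± 0.15 and 0.05 ± 0.13. Rab27a stood at 0.16 without Lo replicate 2. Smpd3 lay near the dim limit, at 30.9 and 34.4 in Hi and 30.5 and 28.1 in Lo. Its other probe sets differed by -0.152, dim on both Hi arrays, and by 0.645, dim on both Lo arrays. The probe sets of Arf6 disagreed: its 3 others had differences of 1.28, 0.99 and -0.03, with the smallest adjusted p at 0.186, and the mean of all 4 was 0.57 (adjusted p = 0.274).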

How the data were processed

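LSK cells sorted by c-Myc-eGFP were measured on Affymetrix mouse arrays with probes near the 3′ end of transcripts, 2 per group. Per the labels' protocols, RNA was amplified from 5 ng with a NuGEN Ovation kit, which can compress or spread differences. The deposited file holds an intensity for each probe set on each array, made with RMA per the submitters' processing notes, whose settings are not given in the sources used here. Values of 2.957 to 22121.7 show a linear scale, so log2 was taken here of the deposited intensity with no offset. RMA is built to bring arrays to one distribution, which hides any difference in RNA content between cells. The medians over probe sets were not equal here, at 5.70 and 5.71 in Hi and 5.78 and 5.82 in Lo on the log2 scale. Intensities of different probe sets were set side by side only to rank brightness, to apply the dim limit and to sum marker lists. Such sums weigh the brightest probe sets most. The number of arrays limits the precision.

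Of 45101 probe sets, 64 controls were left out. The annotation gave 1 symbol to 34945, several to 932 and none to 9160. Hi minus Lo was fitted over all 45037 with limma 3.58.1 in R 4.3.3 (lmFit, eBayes, no block, two-sided; 2 residual degrees of freedom, prior 1.976), with Benjamini-Hochberg adjustment and calls under 0.05. With 2 against 2 arrays an exact permutation test cannot go below 0.333. A gene is led by its brightest probe set. A gene under the dim limit on both arrays of a group has a bound there, from the other group's mean against that limit. Only the limma fit was tested on simulated data, with variances drawn from its own prior. The check covered the median estimate of added changes and not the calls or the other steps. Same-numbered replicates of Hi and Lo deviated together at r = 0.072 over probe sets. The labels do not tie these numbers to animals or days, so no pairing was used.

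All 10 genes were named, and of each further list the 3 genes with the smallest p per direction. Tspan17, Tspan10, Tspan15, Adam10 and the other probe sets of listed genes were added after their values were seen. The members, lists and dim limit were chosen with earlier results of these data known. Alternatives were a dim filter, 3 normalizations, an offset of 16, 2 fits over genes, 2 variance models, a replicate block and each array left out. No scan date was used here, so array batches were not tested.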

Additional observations from a re-analysis of the deposited data

How the results depend on the processing

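Under all 14 alternatives 0 tetraspanin probe sets or genes of the set were called. With the replicate block this count was also 0, and the block changed no other call; the median difference of the 22 probe sets kept to -0.11 to 0.02 with single arrays left out, and to -0.10 to 0.05 otherwise. The genes of the other 3 lists gave 1 call with the mean of all probe sets (Tspan17) and 1 with the brightest probe set per gene (Tspan8, 1.63), against 0 in the fit over all probe sets; these fits test 18193 genes and call 252 higher and 276 lower, and 190 higher and 214 lower, where the fit over probe sets calls 0. The ordinary test called 0 higher and 1 lower. Of 533 values of 40 genes or probe sets, 517 kept their sign and side of the threshold, 1 passed and 15 turned sign. The turned values were -0.15 for Cd9 without Lo replicate 2 (1.57 without Lo replicate 1), -0.33 for Cd37 with the mean of probe sets and -0.10 without Lo replicate 1 (0.32 without Lo replicate 2), -0.011 and -0.11 for Cd53 (cyclic loess; mean of probe sets), -0.021 for Arf6 with cyclic loess and -0.011 without Lo replicate 2 (0.11 without Lo replicate 1) and 0.34 for Stam (mean of probe sets). Cd151 1427525_at, level in the fit over all arrays, had -0.03 with cyclic loess and -0.006 with an offset, and -0.30 to 0.30 with arrays left out. Tspan32 1431289_at had 0.13 without Hi replicate 2, in a range from -0.60. Tspan13 1460239_at had 0.005 after the median shift and 0.14 without Lo replicate 1, in a range from -0.31. The cause was not tested. The median shift moved the median of all probe sets to 0.14, against 0.04.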
